A study of Rattus norvegicus with 36 samples.

Results

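Ribosomal protein genes encode the proteins that, together with ribosomal RNA, build the small and large subunits of the cytoplasmic ribosome. They were chosen here by symbol: every probe set with a single gene symbol of the form Rpl or Rps plus a number, and Rplp0 and Rpsa, without Rpl3, Rpl3l and the S6 kinases. This gave 37 of the 4736 genes with 1 symbol on the array, or 54 of its 8799 probe sets, and all 54 passed the filter on low values. Of the 37 genes, 25 encode large-subunit and 12 small-subunit proteins. Each gene is described by its brightest probe set, the one with the highest mean over all arrays, and 14 genes had more than 1. Rplp1, Rplp2 and Rps27a had no probe set of a single symbol and were not analysed here.

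The RNA came from rat muscle taken at postnatal days 0, 7, 14, 21, 28 and 45. Extraocular muscle (EOM), which moves the eye, was set beside a leg sample of gastrocnemius and soleus, and each of the 12 groups of muscle and day holds 3 arrays. The labels give no strain, sex, treatment or pooling and do not say that the 3 arrays come from separate animals, so p-values measure the spread between these samples, which may be technical. In whole muscle, fewer cells of a type cannot be told apart from less RNA per cell.

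Ribosomal protein mRNAs are among the most abundant of growing cells, and the subunits need their proteins in equal amounts. The mRNAs carry a 5′ terminal oligopyrimidine tract, an unbroken run of C and T at the transcription start, through which mTOR signalling sets their translation. Muscle growth after birth needs new ribosomes, and adult fibres keep a slower turnover.

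The sequence around the annotated start is shown for the genes on which the results below turn. By the brightest probe set, 4 rose with age in EOM and 4 fell. In Rps3 and Rps15, of the 4 that rose, another probe set fell in EOM. Each window holds the 15 bases before the RefSeq start and the first 15 of the transcript (build GRCr8), and capitals mark its longest run of C and T.
Rplp0, chr12:46718376-46718405, minus strand: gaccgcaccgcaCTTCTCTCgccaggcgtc
Rps3, chr1:163195762-163195791, minus strand: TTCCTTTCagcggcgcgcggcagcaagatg
Rpl7a, chr3:30637121-30637150, plus strand: CTCTCCTCCagccgagcaagatggtgagtg
Rps15, chr7:10068101-10068130, minus strand: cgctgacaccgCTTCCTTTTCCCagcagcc
Rps24, chr16:96502-96531, plus strand: tgagcggTCCTCTTTTCCTCCTTTacagct
Rps10, chr20:5700730-5700759, minus strand: gccgcgcacgCCCCTTCCTTTCCagcctcc
Rpl14, chr8:129163605-129163634, plus strand: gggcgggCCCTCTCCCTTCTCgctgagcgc
Rpl18, chr1:105325255-105325284, plus strand: tctggacctggTCTagcaggaggcgccatc

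The run spans the annotated start in Rplp0, Rps15, Rps24, Rps10 and Rpl14. In Rps3 and Rpl7a it ends upstream of it, and in Rpl18 the longest run is only 3 bases. RefSeq held a start for 33 of the 37 genes (Rps9, Rps29, Rpl27 and Rpl30 were not matched). A run of 8 or more C and T bases within 25 bases of the start, on the sense strand, was found in 25 of the 33 genes (75.8%) and in 19.4% of all 33469 promoters. An exact start at C followed by 4 more C or T bases was found in 11 of the 33 (33.3%) against 2.63% of all. In the 250 bases before the start, CCGGAA on either strand was found in 27.3% of the 33 against 12.6% of all, and GGGCGG in 60.6% against 30.5%. TATAAA, in the same bases, was found in 9.09% against 12.9%. A match is a description of the letters and no measurement of translation or binding was made.

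Ribosomal protein probe sets were among the brightest of the array. The range above the 95th percentile of all values, an intensity of 9392.24 or log2 13.20, is called the bright range here. Of the brightest probe sets of the 37 genes, 12 lay in the bright range on all 36 arrays, 20 on some and 5 on none (Rpl5, Rpl30, Rpl17, Rps24 and Rpl41). Since the brightest probe set was chosen for each gene, their height is partly set by that choice. Over all 54 probe sets 74.9% of the values lay in the bright range, which by construction holds 5% of all values. On a single array, 10 to 28 of the 37 genes lay within 1 log2 unit of that array's highest value. How far the scanner still resolves differences at this height was not tested.

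**Figure D1:**
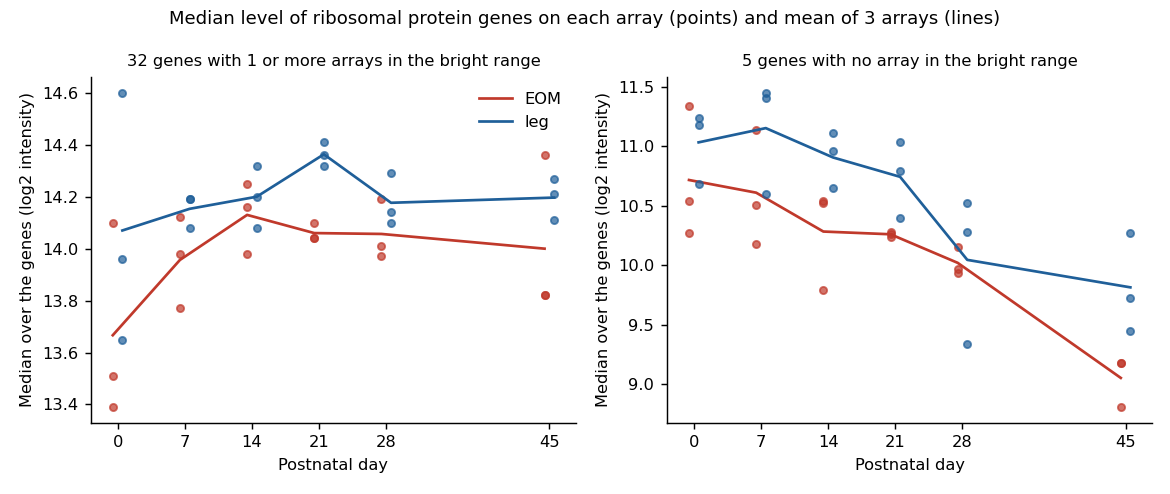
Median log2 intensity of ribosomal protein genes on each array (points, 3 per group) against postnatal day for EOM and leg, with lines through the mean of 3, for the 32 genes with at least 1 array in the bright range and the 5 genes with none. The median over the bright genes stays within a narrow band after day 0, although single genes among them range more widely. Between days 0 and 45 the median over the 5 dimmer genes goes from 10.72 to 9.05 in EOM and from 11.03 to 9.81 in leg.

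Arrays of 1 group were not equally close. The median over the 37 genes was 13.35, 13.35 and 13.98 (log2 intensity) on the 3 EOM arrays of day 0, and 14.56, 13.49 and 13.90 on the 3 leg arrays. Leg replicate 1 stood above its group and EOM replicate 3 above its own. A gene's 3 values spanned 1 log2 unit or more in 16 of the 37 genes in leg at day 0, in 9 genes in EOM at day 0 and in 10 genes in EOM at day 45. Within groups many genes deviated together. The median pairwise correlation of deviations from the group mean, over 36 arrays on a common scaling, was 0.32 for all 37 genes. It was 0.44 for the 32 bright genes and 0.20 for the 5 dim ones, and single pairs ran from -0.55 to 0.93. The same value over other probe sets was not taken, so this is no trait of ribosomal protein genes.

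The median over the 37 genes is set by the 32 bright ones. It was 13.56 ± 0.36 (log2 intensity, SD, n = 3) in EOM at day 0, 14.03 ± 0.13 at day 14 and 13.85 ± 0.21 at day 45. In leg it was 13.98 ± 0.54 at day 0, 14.28 ± 0.06 at day 21 and 14.01 ± 0.09 at day 45. Single genes peaked at different ages. In EOM 10 genes had their highest group mean at day 0 and 13 at day 28, and 17 had their lowest at day 0 and 12 at day 45. In leg 16 genes were lowest at day 0 and 12 at day 45. All 5 dim genes were highest at day 0 in EOM, while in leg 1 of them was highest at day 0, 3 at day 7 and 1 at day 14. The median over these 5 genes went from 10.72 ± 0.56 at day 0 to 9.05 ± 0.21 at day 45 in EOM, and from 11.03 ± 0.31 to 9.81 ± 0.42 in leg.

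At birth, 5 of the 37 genes were lower in EOM than in leg and 0 were higher, on a background of 2.4% of all tested probe sets lower and 3.93% higher (6.32% in either direction). These 5 were Rplp0, Rps3, Rpl7a, Rps15 and Rps9. Differences are log2, EOM minus leg, with the SE of the limma fit, whose variance is pooled over the 12 groups, and p-values are adjusted by Benjamini-Hochberg over the 6672 tested probe sets.

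Rplp0 encodes the protein that anchors the stalk of the large subunit, to which translation factors bind. Its log2 intensity at day 0 was 9.05, 9.03 and 10.77 on the EOM arrays and 14.16, 11.75 and 11.64 on the leg arrays. The groups did not overlap: the difference was -2.90 ± 0.58 (adjusted p = 0.0010), and the fold between the group means was 7.48. At day 7 the EOM arrays read 10.35, 10.30 and 12.76 against 13.30, 13.18 and 12.91 in leg, again with no overlap, a difference of -1.99 ± 0.58 (adjusted p = 0.0367). This was the only gene of the 37 past the threshold at day 7, where 4.98% of all probe sets passed. At that age the EOM arrays all lay below the leg arrays in 8 of the 37 genes, against 9.2% of all probe sets. The day 7 call was lost with the replicate number as a block (adjusted p = 0.0672) and when any of the arrays of that day other than EOM replicate 3 was left out. From day 14 the groups lay together: the differences were 0.36 at day 14, -0.66 at day 21, -0.48 at day 28 and -0.32 at day 45, none past the threshold.

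Of the small-subunit genes lower at birth, Rps3, whose protein lines the channel by which mRNA enters, read 11.44, 10.78 and 13.19 in EOM and 14.76, 13.18 and 13.82 in leg. EOM replicate 3 lay a little above leg replicate 2, so the groups overlapped, and the difference was -2.12 ± 0.37 (adjusted p = 0.000181). The other probe set of Rps3 read 13.95, 13.86 and 14.43 in EOM against 14.87, 14.18 and 14.15 in leg, a difference of -0.32 ± 0.26 (adjusted p = 0.657). The call at birth therefore holds for 1 of the 2 Rps3 probe sets. Rps9 read 13.12, 13.00 and 13.81 against 15.04, 13.76 and 13.90 in leg, with overlap (difference -0.92 ± 0.24, adjusted p = 0.0162). Rps15 read 12.79, 12.27 and 13.34 against 14.56, 12.96 and 13.66 in leg, also with overlap (difference -0.93 ± 0.27, adjusted p = 0.0356). Its 2 other probe sets gave -1.02 ± 0.49 (adjusted p = 0.297) and 0.05 ± 0.45. Without leg replicate 1 the differences of Rps9 and Rps15 were -0.52 and -0.51 and no longer passed. They also failed without EOM replicate 1 or 2, and Rps15 without leg replicate 3.

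Rpl7a, of the large subunit, read 12.04, 12.42 and 12.98 in EOM and 14.60, 13.72 and 13.14 in leg at day 0. Its groups did not overlap, with a difference of -1.34 ± 0.26 (adjusted p = 0.000842) and a fold of 2.54 between the means. In the fit limited to the 6 arrays of day 0 none of the 5 genes passed (adjusted p from 0.122 to 0.372).

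The other 32 genes did not pass at birth. The EOM arrays all lay below the leg arrays in 3 of the 37 genes, against 8.78% of all probe sets. In all, 32 of the 37 differences were below 0 at day 0, against 44.75% of all tested probe sets. The median over the 37 was -0.30, against 0.05 over all tested probe sets. Quantile normalization moved this to 23 genes and a median of -0.06. Rpsa, the small-subunit protein also known as the laminin receptor, differed by -0.14 ± 0.25. The widest spread was that of Rpl27a in leg, at 14.27, 6.88 and 13.53, so its difference of 1.48 ± 0.89 (adjusted p = 0.467) rests on 1 low array. Rps29 read 14.00, 6.66 and 12.94 in leg and 10.93, 6.66 and 10.58 in EOM, where 6.66 is the floor set for low values.

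Other RNA moved with muscle at birth. Of 9 epithelium and gland markers, 9 were higher in EOM at day 0, by a median of 3.26, and 5 at day 7. Their summed intensity was 28280 to 37300 on the EOM arrays of day 0 and 2634 to 5069 on the leg arrays, and no marker lay at the floor on all arrays of either group. Of 12 defining muscle markers 5 were lower in EOM (Des, Tnni2, Myh4, Cav3, Myl1) and 1 higher (Ckm), and their summed intensity was 91300 to 105200 in EOM and 102600 to 156100 in leg, with none at the floor on all arrays of day 0. The Ckm difference was 4.64 ± 1.38, and its probe set lay at the floor on all arrays of both muscles at days 21 and 28, so it is weak as a marker here. Of 4 erythroid markers 2 were lower in EOM (Hbb, difference -3.02, and Hbb-b1, -2.96), with sums of 7880 to 9641 against 9313 to 54420 in leg, and of 7 adipocyte markers 3 were lower (16360 to 21060 against 26010 to 33740). Of 10 Schwann cell and axon markers 4 were higher and 1 lower, and from day 7 on 4 to 7 of them were higher at each age and 0 lower. Of 9 markers of dividing cells 2 were higher at day 0 (Ccnd1, Ccnd2). The part of these cells in the ribosomal protein values was not tested.

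**Figure D2:**
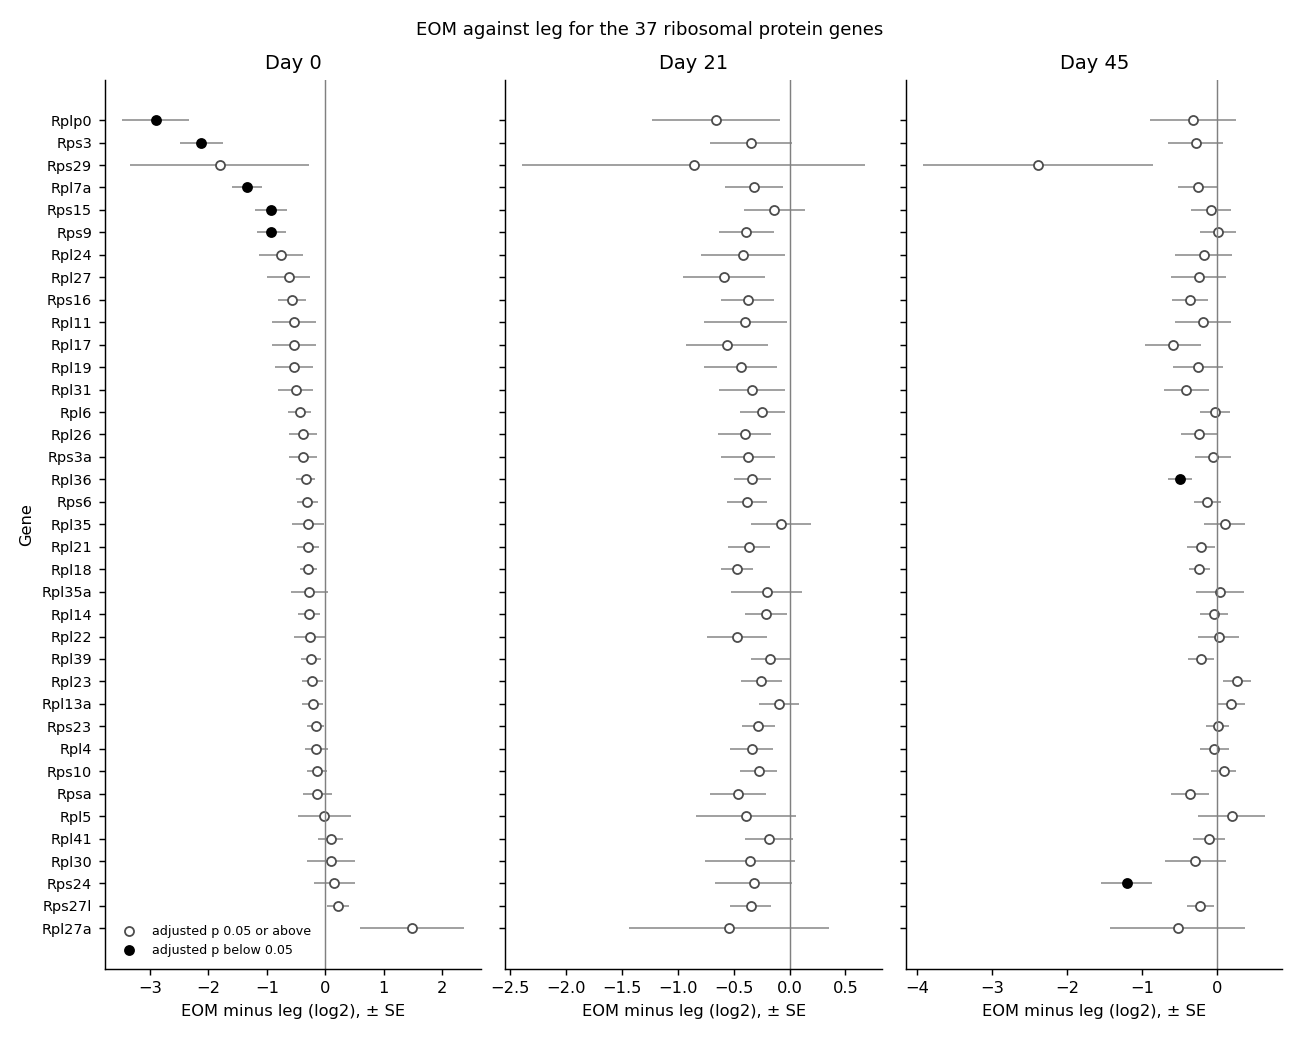
Log2 difference between EOM and leg for each of the 37 genes at days 0, 21 and 45 (bars are the SE, filled points have an adjusted p under 0.05, and each panel has its own horizontal scale). Filled points are 5 at day 0, 0 at day 21 and 2 at day 45. At day 21 all 37 lie left of 0 in the deposited scaling, against 42.58% of all tested probe sets.

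Later ages gave few calls. At day 14 no gene of the 37 passed (4.92% of all probe sets did), and 3 had an unadjusted p under 0.05 in limma. At this age 24 of the differences were below 0 (48.65% of all tested probe sets), which fell to 18 with quantile normalization. At day 21 no gene passed either (background 4.03%), with 3 at an unadjusted p under 0.05. Yet all 37 differences were below 0, against 42.58% of all tested probe sets, with a median of -0.36 against 0.08. The 37 differences come from the same arrays, on which many genes deviated together. In 23 genes the 3 EOM arrays all lay below the 3 leg arrays at day 21, which 7.69% of all probe sets did. With quantile normalization 29 of the 37 remained below 0 and the median was -0.05, so the size of this shift depends on the scaling. The highest intensity on each leg array of day 21 (33360 to 36260) also lay above that on each EOM array (26070 to 29550). The part of brightness in this shift was not tested, and no share over equally bright probe sets is given. Rpl18 came nearest to a call at day 21 (-0.47 ± 0.14, adjusted p = 0.0537), and Rpsa differed by -0.46 ± 0.25 (adjusted p = 0.376).

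At day 28 Rpl18, of the large subunit, was lower in EOM and was the only gene past the threshold (background 11.8%). Its arrays read 13.39, 13.31 and 13.66 in EOM and 14.05, 13.99 and 13.92 in leg, with no overlap, a difference of -0.53 ± 0.14 (adjusted p = 0.0112). The call was lost without EOM replicate 1 (adjusted p = 0.0511) or 2 (adjusted p = 0.0722). In 13 genes the EOM arrays all lay below the leg arrays (11.9% of all probe sets). Of the 37 differences 31 were below 0 (46.13% of all tested probe sets), or 19 with quantile normalization.

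At day 45 Rps24 and Rpl36 were lower in EOM (10.6% of all probe sets passed, 3.69% as lower). Rps24, a small-subunit protein whose human gene is mutated in Diamond-Blackfan anaemia, read 10.15, 8.24 and 10.40 in EOM and 10.49, 10.31 and 11.63 in leg. The groups overlapped, and the difference of -1.21 ± 0.34 (adjusted p = 0.0200) rested on single arrays: it was -0.53 (adjusted p = 0.268) without EOM replicate 2 and -0.80 (adjusted p = 0.157) without leg replicate 3. At the earlier ages Rps24 differed by 0.16, -0.14, -0.44, -0.32 and -0.10, none past the threshold.

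Rpl36, of the large subunit, read 13.69, 14.02 and 13.84 in EOM and 14.37, 14.44 and 14.25 in leg at day 45. The groups did not overlap (difference -0.50 ± 0.16, adjusted p = 0.0444), and the call was lost with each array scaled to its median (adjusted p = 0.0728) and with quantile normalization (adjusted p = 0.232). It was also lost without leg replicate 1 or 2 or EOM replicate 1 or 3 (adjusted p from 0.0721 to 0.170). Rpl36 was 1 of 2 genes whose EOM arrays all lay below the leg arrays at day 45 (9.07% of all probe sets). Its differences at the earlier ages, from -0.33 to -0.07, were of the same sign and did not pass. A dimmer probe set of Rpl21 also passed at day 45, at 7.86, 8.23 and 8.97 in EOM and 9.58, 8.99 and 9.99 in leg (difference -1.17 ± 0.34, adjusted p = 0.0224). Rps29 spread widest of all at this age, with EOM arrays at 6.66, 12.76 and 15.05, and its difference of -2.39 ± 1.53 did not pass (adjusted p = 0.395). Rpsa differed by -0.37 at day 45 and did not pass, but did without EOM replicate 3 (-0.83, adjusted p = 0.00797).

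**Figure D3:**
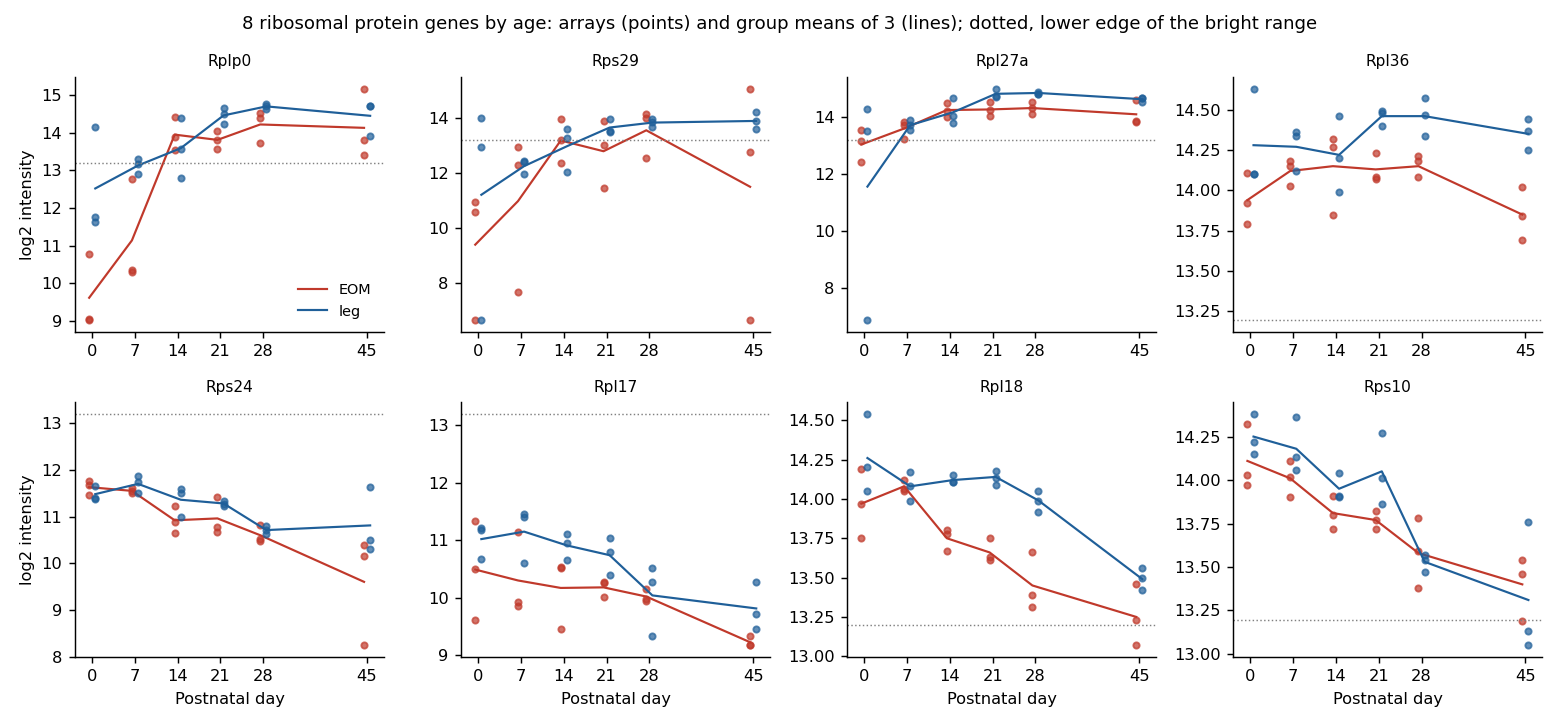
Log2 intensity of Rplp0, Rps29, Rpl27a, Rpl36, Rps24, Rpl17, Rpl18 and Rps10 on every array against postnatal day in EOM and leg, with lines through the mean of 3. Rplp0 climbs in EOM from 9.05, 9.03 and 10.77 at day 0 to between 13.42 and 15.17 at day 45, while single arrays of Rps29 and Rpl27a drop to or near the floor of 6.66.

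With age, the brightest probe sets of these genes went both ways. Direction often depended on the probe set: among the 14 genes with several, signs differed in 12 in EOM and in 9 in leg. From day 0 to day 45 in EOM, 10 of the 37 rose (background 12.9% higher) and 8 fell (18.4% lower). In leg 3 rose (14.4%) and 11 fell (18.5%). In either direction 18 genes passed in EOM, where 31.3% of all probe sets did, and 14 in leg, where 32.8% did. The 14 in leg and the 8 that fell in EOM lie near these background shares. The median over the 37 genes was 0.03 in EOM and 0.08 in leg, close to the medians over all probe sets of -0.04 and 0.06. Quantile normalization turned both medians over the 37 genes below 0, to -0.22 and -0.13. Differences in the sentences on age are day 45 minus day 0.

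Single arrays decided part of these calls. Leaving out each array in turn, 11 of the 18 EOM calls held every time (Rplp0, Rps3, Rpl7a, Rps15, Rps9, Rps24, Rpl30, Rpl41, Rpl14, Rpl18, Rps10), and 5 of the 14 leg calls did (Rpl13a, Rpl14, Rpl18, Rpl23, Rps10). Without leg replicate 1 of day 0, 11 genes rose and 9 fell in leg. Without replicate 2 of that group 0 rose and 9 fell, and without replicate 3, 1 rose and 8 fell.

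By their brightest probe sets, all 5 genes that were lower in EOM at birth rose in EOM with age. These 2 comparisons share the EOM arrays of day 0. Another probe set of Rps3 and another of Rps15 fell in EOM, as given below. Rplp0 rose by 4.51 ± 0.58 (adjusted p = 3.57e-07), from the day 0 values given above to 13.42, 13.80 and 15.17 at day 45. In leg Rplp0 rose by 1.93 ± 0.58 (adjusted p = 0.00963), to 14.71, 14.72 and 13.92. The leg call was lost without day 0 replicate 2 (1.55, adjusted p = 0.0714) or 3 (1.49, adjusted p = 0.0783). It was also lost in the fit of only the arrays compared (adjusted p = 0.0583). The difference between these changes was 2.58 ± 0.81 and did not pass (adjusted p = 0.0743). This difference passed with quantile normalization (2.79, adjusted p = 0.0302). It also passed without EOM day 0 replicate 3 (3.16, adjusted p = 0.0248) or leg day 0 replicate 3 (3.02, adjusted p = 0.0458).

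Among the small-subunit genes, the brightest probe set of Rps3 rose by 2.40 ± 0.37 in EOM (adjusted p = 6.3e-06), to 14.00, 14.11 and 14.49, and differed by 0.57 in leg (adjusted p = 0.245), or by 0.99 without leg day 0 replicate 1 (adjusted p = 0.0463). In the difference between the changes of the muscles 3.7% of all probe sets passed. Of the 37 genes only Rps3 was past the threshold in the main fit (1.83 ± 0.52, adjusted p = 0.0413). That call was lost in the fit of only the 12 arrays compared (adjusted p = 0.283), without any one of 9 of those arrays (adjusted p from 0.0532 to 0.167) and for the other Rps3 probe set. Rps15 rose by 1.12 ± 0.27 and Rps9 by 1.11 ± 0.24 in EOM, and Rps16 by 0.79 ± 0.24, a call lost without EOM day 0 replicate 2 (0.67, adjusted p = 0.0688) or day 45 replicate 3 (0.64, adjusted p = 0.0671).

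Among the large-subunit genes in EOM, Rpl7a rose by 1.58 ± 0.26 (adjusted p = 2.04e-05). Rpl11, which with Rpl5 and the 5S ribosomal RNA forms a particle that binds Mdm2, rose by 1.25 ± 0.37 (adjusted p = 0.0104), or 0.98 without EOM day 0 replicate 1 (adjusted p = 0.0752). Rpl24 rose by 1.22 ± 0.38, Rpl19 by 0.96 ± 0.33 and Rpl31 by 0.87 ± 0.30. Without EOM day 45 replicate 3 these were 0.73 (adjusted p = 0.151), 0.64 (adjusted p = 0.176) and 0.54 (adjusted p = 0.191), and all 3 calls were also lost without EOM day 0 replicate 2. In leg the 3 genes that rose were Rpl27a, Rplp0 and Rpl31 (0.77 ± 0.30, adjusted p = 0.0441), whose call was lost without any of 4 of the 6 arrays (lowest 0.47, adjusted p = 0.287). The rise of Rpl27a in leg, 3.07 ± 0.89, came with the low day 0 array: without leg replicate 2 it was 0.73 (adjusted p = 0.0592).

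Several genes were called in both muscles. Of the 18 genes called in EOM and the 14 in leg, 9 were called in both, 7 as lower (Rpl4, Rpl14, Rpl17, Rpl18, Rpl30, Rpl41, Rps10) and 2 as higher (Rplp0, Rpl31). These 9 are 50% of the EOM calls and 64.3% of the leg calls, where over all tested probe sets 64.9% of the EOM calls and 61.9% of the leg calls were shared. Rpl14, Rpl18 and Rps10 held in both muscles whichever array was left out. In the fit of only the arrays compared, these genes lost the EOM call (adjusted p = 0.0565, 0.0511 and 0.0518). Across the 54 probe sets the age differences in EOM and in leg had a Pearson correlation of 0.81, against 0.72 over all 6672, a description over probe sets of the same arrays.

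Among the brightest probe sets, that of Rps24 fell most in EOM, by 2.03 ± 0.34 (adjusted p = 2.59e-05). It went from 11.67, 11.46 and 11.77 to 10.15, 8.24 and 10.40 with no overlap. In leg its difference was -0.67 ± 0.34 (adjusted p = 0.138), or -1.08 without day 45 replicate 3 (adjusted p = 0.0185). The difference between its changes in EOM and leg did not pass, but did without EOM day 45 replicate 3 (-1.77, adjusted p = 0.0297). Rps10, of the small subunit, fell by 0.71 ± 0.17 in EOM and by 0.93 ± 0.17 in leg. Its leg arrays went from 14.38, 14.15 and 14.22 to 13.05, 13.13 and 13.76, again without overlap. Rps23 fell in leg, by 0.49 ± 0.15 (adjusted p = 0.0103), a call lost without replicate 1 of day 0 (adjusted p = 0.056) or of day 45 (adjusted p = 0.0538). The Rps23 call was also lost with each array scaled to its median (adjusted p = 0.111) and in the fit of only the arrays compared (adjusted p = 0.117).

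Rpl30, of the large subunit, fell by 1.70 ± 0.40 in EOM (adjusted p = 0.00151), from 10.54, 10.27 and 10.90 to 9.16, 8.81 and 8.63. In leg it fell by 1.31 ± 0.40 (adjusted p = 0.0123), from 9.44, 11.24 and 10.73 to 9.08, 9.37 and 9.02. The ages did not overlap in either muscle, although leg replicate 1 of day 0 lay close to the day 45 arrays. The leg call was lost without day 0 replicate 2 (-0.93, adjusted p = 0.116) or 3 (adjusted p = 0.0539). Rpl17, whose protein lines the tunnel by which the new chain leaves, fell by 1.26 ± 0.37 in EOM and by 1.21 ± 0.37 in leg. These calls were lost without EOM day 0 replicate 3 (-0.83, adjusted p = 0.108) and without leg day 45 replicate 2 (-1.03, adjusted p = 0.0652). Rpl4, another tunnel protein, fell by 0.59 ± 0.19 and 0.70 ± 0.19, and lost the EOM call without any of 3 arrays (adjusted p from 0.0529 to 0.0713) and the leg call without day 0 replicate 1 (adjusted p = 0.0523).

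Rpl14 fell by 0.72 ± 0.19 in EOM and by 0.95 ± 0.19 in leg, and Rpl18 by 0.72 ± 0.14 and 0.77 ± 0.14. Rpl18 read 13.97, 13.75 and 14.19 in EOM at day 0 and 13.07, 13.23 and 13.46 at day 45, so the ages did not overlap. Rpl41, which encodes the smallest protein of the ribosome, fell by 0.78 ± 0.21 and 0.57 ± 0.21, the leg call being lost without any of 4 of the 6 arrays (adjusted p from 0.0904 to 0.151). Rpl13a and Rpl23 fell in leg, by 0.85 ± 0.18 and 0.71 ± 0.18. Rpl5 fell in leg by 1.16 ± 0.45 (adjusted p = 0.0454), a call that was lost without the day 45 array at the floor (leg replicate 1, then -0.37, adjusted p = 0.526) or without any of 3 other arrays (adjusted p from 0.0655 to 0.139), and its EOM difference of -0.95 ± 0.45 did not pass. Rpsa did not pass in EOM (-0.05) or in leg (0.18). Rpl36 did not pass in either muscle, but fell in EOM with quantile normalization (-0.39, adjusted p = 0.0237).

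**Figure D4:**
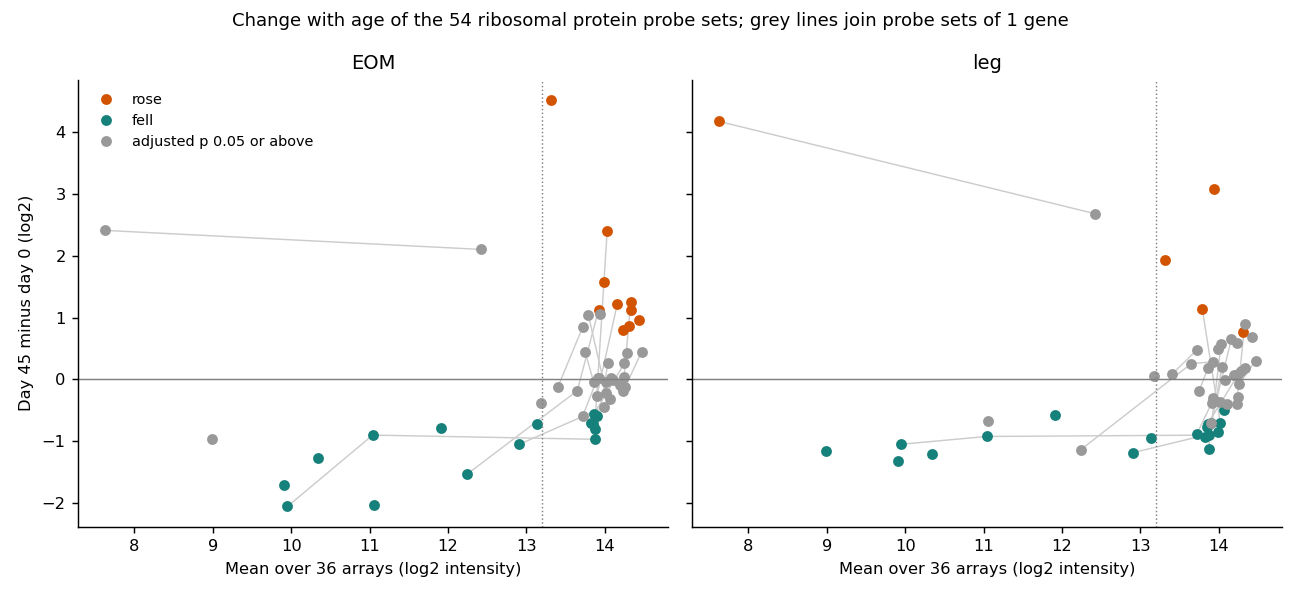
Log2 difference between day 45 and day 0 against mean log2 intensity for all 54 ribosomal protein probe sets, in EOM and in leg. Grey lines join the probe sets of 1 gene and the dotted line marks the edge of the bright range. The 7 probe sets that never reached that range lie below 0, while the leftmost point, the dimmer probe set of Rps29, lies above 0, and those near and beyond the edge lie on both sides.

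The probe sets were also set apart by how many arrays lay in the bright range. Of the 54 probe sets, 7 never reached the bright range. They come from 6 genes, since Rpl21 is counted more than once. The brightest probe set of Rpl21 is not among them and gave 0.27 in EOM and 0.20 in leg. All 7 had a negative difference in both muscles, and 6 of the 7 fell in EOM and 0 rose, against 18.2% and 9.64% of the 5821 tested probe sets that never reached the range. In leg 6 of the 7 fell and 0 rose, against 17.6% and 12.1%. Their median difference was -1.26 in EOM, from -2.05 to -0.78, and -1.05 in leg, from -1.31 to -0.57, where all such probe sets had medians of -0.07 and 0.04.

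The dimmest probe set by its mean went the other way. It is the second of Rps29, at the floor of 6.66 on 27 of the 36 arrays and in the bright range on 2. It lay at the floor on all day 0 arrays of both muscles and read 12.57, 13.24 and 6.66 in leg at day 45, where it was called higher (adjusted p = 0.0313), and 6.66, 6.66 and 13.88 in EOM (adjusted p = 0.238). No fold is given for it, since 3 arrays at the floor hold no measured level.

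The 31 probe sets in the bright range on some arrays, the dimmer one of Rps29 included, went both ways. In EOM 10 of them rose (36.3% of all 754 such probe sets) and 8 fell (22.5%), and in leg 5 rose (31.8%) and 8 fell (26.9%). Of the 16 probe sets in the bright range on all 36 arrays, 0 rose and 1 fell in EOM, where 26.8% and 2.06% of all 97 such probe sets did. In leg 0 of the 16 rose and 4 fell (17.5% and 6.19%). Their differences in EOM ran from -0.56 to 0.45. The part of brightness in these directions was not tested.

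Probe sets of the same gene often went different ways. In EOM the sign with age differed among the probe sets of 12 of the 14 genes that have several, and in leg of 9. Past the threshold in both directions were Rps3 and Rps15 in EOM and Rpl23 in leg. The dimmer Rps3 probe set read 13.95, 13.86 and 14.43 in EOM at day 0 and 13.17, 12.87 and 13.79 at day 45, and it fell by 0.80 ± 0.26 (adjusted p = 0.0171), where the brightest rose. In leg it fell by 1.12 ± 0.26 (adjusted p = 0.00102). The dimmest Rps15 probe set fell by 1.53 ± 0.45 in EOM (adjusted p = 0.00955) and the third gave -0.18, where the brightest rose by 1.12.

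In Rpl23, whose protein also binds Mdm2, the brightest probe set fell in leg from 14.32, 14.33 and 14.34 to 13.49, 13.68 and 13.69. The dimmest read 14.45, 11.46 and 13.58 at day 0 and 14.54, 14.01 and 14.35 at day 45, a rise of 1.13 ± 0.44 (adjusted p = 0.0491) on overlapping arrays. The other probe sets of Rpl11 and Rpl24 gave -0.19 and -0.26 in EOM, so their rises also hold for 1 probe set each.

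**Figure D5:**
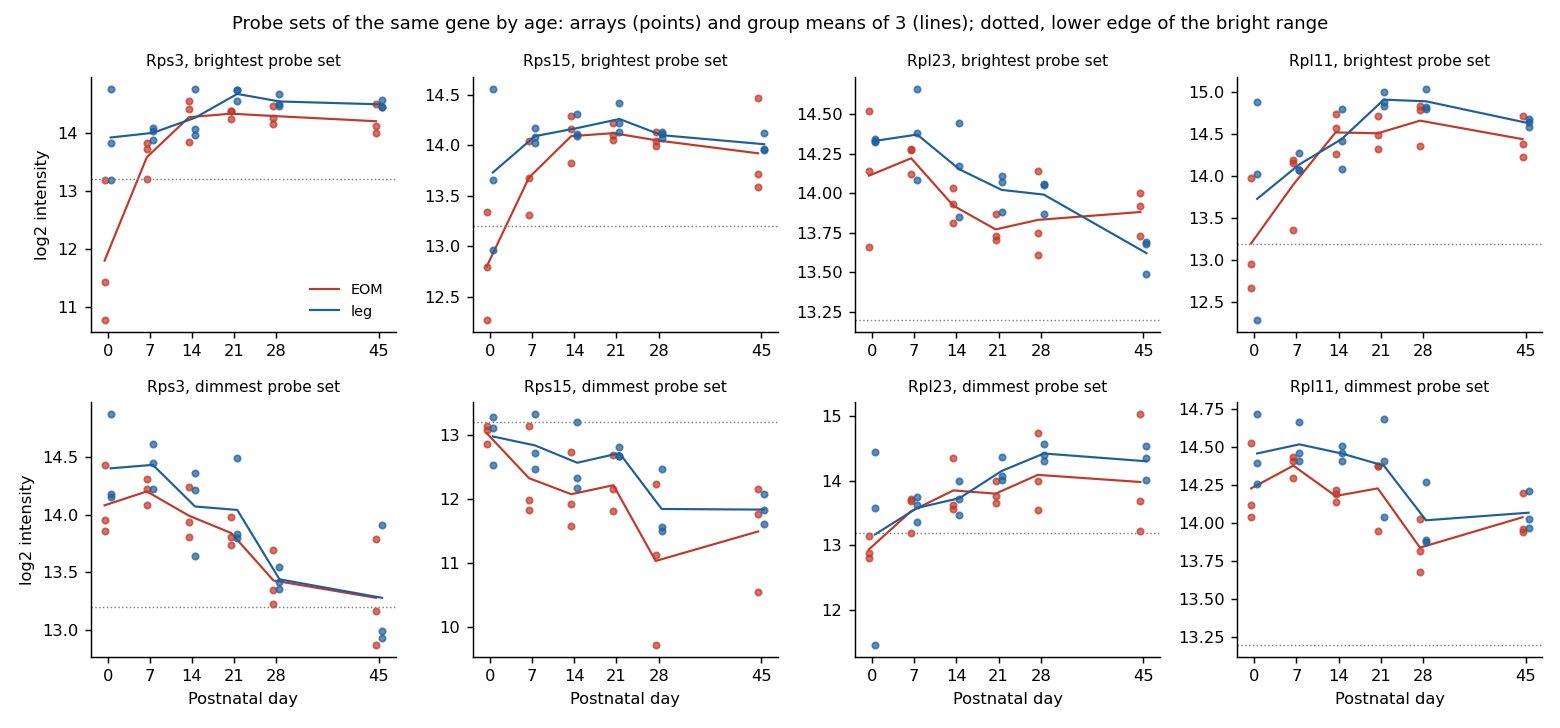
Log2 intensity of the brightest and the dimmest probe set of Rps3, Rps15, Rpl23 and Rpl11 on every array against postnatal day in EOM and leg. In Rps3 the brightest probe set climbs in EOM from as low as 10.78 at day 0 to 14.00 or more at day 45, while the other goes from 13.86 or more to between 12.87 and 13.79.

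Dimmer probe sets of Rpl21, Rps6 and Rpl13a also fell. Of the brightest probe sets of these genes, only that of Rpl13a was called, in leg. In Rpl21, 3 of the 4 probe sets fell in EOM, with differences of -0.97 ± 0.17, -0.90 ± 0.25 and -2.05 ± 0.34, and the same 3 fell in leg, with -0.90 ± 0.17, -0.92 ± 0.25 and -1.05 ± 0.34. The brightest Rpl21 probe set gave 0.27 ± 0.19 and 0.20 ± 0.19, neither past the threshold. Rps6, the substrate of the S6 kinases, fell by its dimmer probe set, by 0.56 ± 0.16 in EOM and by 0.72 ± 0.16 in leg, while the brightest gave 0.26 ± 0.18 and 0.09 ± 0.18. The dimmer probe set of Rpl13a fell by 1.05 ± 0.20 and 1.18 ± 0.20, and its brightest fell in leg.

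Ribosomal protein genes have many near-identical processed copies in rodent genomes, and 7 of the 37 brightest probe sets carry the suffix that marks probes shared between transcripts. These are the probe sets of Rplp0, Rps10, Rps15, Rps16, Rpl6, Rpl27a and Rpl30. Their values are uncertain to that extent, and probe sequences were not used here. Rplp0, which rose most in EOM, has only 1 probe set of a single symbol, so its values could not be set beside those of another. Another 39 probe sets name a ribosomal protein gene among several symbols and were left out of the 37. Of these, 38 were tested: 10 rose and 11 fell with age in EOM, and 4 rose and 9 fell in leg. At day 0 their median difference between EOM and leg was -0.29 and at day 21 it was -0.34.

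Genes that make and use ribosomes were described beside them, to be read against 12.9% of all probe sets higher and 18.4% lower with age in EOM and 14.4% and 18.5% in leg. Of 11 tested ribosome biogenesis genes, 9 fell with age in EOM and 1 rose (median -1.60), and in leg 6 fell and 0 rose (median -0.93). Nucleolin (Ncl), which binds ribosomal RNA precursors in the nucleolus, fell by 1.85 ± 0.21 in EOM and 1.54 ± 0.21 in leg. Dyskerin (Dkc1), the pseudouridine synthase of ribosomal RNA, fell by 1.89 ± 0.26 and 1.12 ± 0.26. Myc, a regulator of ribosome production, fell by 1.96 ± 0.33 and 0.93 ± 0.33, and Polr1b, a subunit of RNA polymerase I, rose in EOM by 0.80 ± 0.28.

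Of 21 translation factors, 2 rose and 9 fell in EOM with age, and 4 rose and 4 fell in leg, the last near the shares over all probe sets. The elongation factor Eef1a2, the form of adult muscle, rose by 2.14 ± 0.29 and 1.83 ± 0.29, while Eef1a1, the form of most other cells, gave 0.29 and -0.31, neither past the threshold. Of 14 mitochondrial ribosomal protein genes, which serve another ribosome, 5 rose and 0 fell in EOM, and 4 rose and 1 fell in leg. In either direction these are near the 31.3% and 32.8% of all probe sets called. Mrpl38 rose by 2.51 ± 0.35 and 2.06 ± 0.35. Of 11 genes of mTOR and S6 kinase signalling, 0 rose and 3 fell in EOM, and 0 rose and 2 fell in leg, in either direction no more than the share over all probe sets. Of 3 tested genes listed as ribosome-associated, 2 fell in each muscle. Nap1l1 of that list, a histone chaperone, fell in both, with differences of -2.52 ± 0.25 in EOM and -2.03 ± 0.25 in leg. The other was Naca in EOM (-0.77, adjusted p = 0.00216) and Rack1 in leg (-0.63, adjusted p = 0.00705).

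Markers of dividing cells moved with age as well. Of 9 tested, 8 fell in EOM (median -2.37) and 8 in leg (median -2.06), and their summed intensity went from between 49040 and 53860 to between 9652 and 11460 in EOM. In leg it went from between 28820 and 34850 to between 7139 and 7970. Epithelium and gland markers fell in EOM, 8 of 9 with a median of -3.40. In EOM 5 of 7 adipocyte markers rose and 1 fell, 3 of 10 leukocyte markers rose, and of 4 erythroid markers 2 rose (Hbb by 3.68 and Hbb-b1 by 3.40) and 1 fell. The part of these cells in the age differences of the ribosomal protein genes was not tested.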

How the data were processed

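Per the labels, the authors ran total RNA on Affymetrix RG-U34A arrays. The deposited table holds 1 linear intensity per probe set and array, with 44 zeros. Trimmed means of 1501.08 to 1502.29 show a common scaling, which was kept. For the summary of probes into probe sets, software and settings were not given in the sources used here. Depth has no count equivalent on arrays, and 3 arrays per group limit the precision.

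Values were floored at the 20th percentile (intensity 100.9) and turned to log2. After removal of 59 control probe sets, those above the 40th percentile (320.4) on 3 or more arrays were tested, which left 6672 of 8799. By the array's annotation 7006 probe sets have 1 symbol, 308 have several and 1426 have none. Group means of all 36 arrays were fitted with limma 3.58.1 (R 4.3.3, trended prior), with Benjamini-Hochberg adjustment within each comparison and a threshold of 0.05. In simulated data of 6672 features the procedure was tested first.

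The text names all genes of the 37 called in each comparison, although up to 6 each way were planned. Rplp0, Rpsa, Rps3, Rps24 and Rpl36 were followed in every comparison, and part of their values is given. Also named are the widest within-group ranges, genes whose probe sets disagree past the threshold, and some genes of the other lists. Further probe sets (Rpl21, Rps6, Rpl13a) were named after their values were seen. The genes and lists were chosen with earlier results of these data known.

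Replicate numbers are shared between the muscles. Deviations of same-numbered arrays over all tested probe sets correlated above 0.1 in every pair at days 7 (0.13 to 0.30), 14 and 21, so a block was fitted. At days 0, 28 and 45 not every pair did.

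Alternatives were median and quantile scaling, another floor, no filter, other variance priors, only the arrays compared, the replicate block, other probe sets per gene, probe sets outside the bright range, and each array left out.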

Additional observations from a re-analysis of the deposited data

Results flagged for a closer look

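The change of Rps3 from day 0 to day 45 was larger in EOM than in leg by 1.83 on the log2 scale (SE 0.52, adjusted p = 0.0413 in limma), which the test of the difference between the 2 changes picked out. The brightest probe set rose in EOM on 3 of 3 arrays above the day 0 range, and the difference did not pass for the other Rps3 probe set (adjusted p = 0.79). It also did not pass when any one of 9 of the 12 arrays was left out (for example 1.32 without EOM day 0 replicate 2 and 1.41 without leg day 0 replicate 1).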

How the results depend on the processing

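Counts of ribosomal protein genes past the threshold (main value first) depended on the settings as follows. With only the arrays of the groups compared, day 0 went from 5 to 0, day 7 from 1 to 0, day 28 from 1 to 0, day 45 from 2 to 0, age in EOM from 18 to 11, age in leg from 14 to 6 and the difference of changes from 1 to 0. With probe sets outside the bright range, 6 genes were left and these counts were 0, 0, 0, 1, 5, 5 and 0. The dimmest probe set per gene, an alternative chosen after seeing the data, gave 3 at day 0 and 0 for the difference of changes. With no filter day 7 gave 0, day 21 went from 0 to 1 and the difference of changes gave 0. Without a trended prior day 7 gave 0, day 45 gave 1 and the difference of changes 0. Median scaling gave 2 at day 28, 1 at day 45 and 0 for the difference of changes, and quantile normalization gave 2, 1 and 4. For age, median scaling gave 17 in EOM, where Rpl4 lost its call (adjusted p = 0.130). In leg it gave 10, where Rpl31, Rpl41, Rpl5 and Rps23 lost theirs (adjusted p from 0.0661 to 0.111). Quantile normalization gave 23 for age in EOM and 13 in leg. The replicate block gave 0 at day 7 and 2 at day 28, and changed no other count by more than 1.5 times. The mean over probe sets gave 0 for the difference of changes. Over all probe sets, median scaling moved the median difference of day 0 from 0.05 to -0.07, of day 21 from 0.08 to -0.05 and for age in EOM from -0.04 to 0.07. The causes were not tested. Leaving out each array gave 3 to 7 calls at day 0, 0 to 1 at day 7, 0 to 0 at days 14 and 21, 0 to 1 at day 28, 1 to 2 at day 45, 14 to 19 for age in EOM, 9 to 20 for age in leg and 0 to 3 for the difference of changes. The 20 came without leg day 0 replicate 1 and the 9 without leg day 0 replicate 2 or 3.

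Among called genes, the directions that reversed did so with the choice of probe set. Under quantile normalization the genes below 0 went from 36 to 22 at day 7 and from 31 to 19 at day 28. In the main fit 47.08% and 46.13% of all tested probe sets were below 0 at these ages. Over all alternatives, 41 further sign changes concerned values not called on either side. With the dimmest probe set Rps15 gave 0.051 at day 0, and with age in EOM Rps15 gave -1.53, Rpl11 -0.19, Rpl24 -0.26 and Rps3 -0.80. In leg the dimmest of Rpl23 gave 1.13 and of Rps3 -1.12. With the mean over probe sets Rps15 gave -0.20 in EOM and Rpl23 gave 0.21 in leg.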
